A study of Mus musculus with 6 samples.

Results

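The imprinted Dlk1-Dio3 region of mouse chromosome 12 carries a large set of microRNA (miRNA) hairpins, and their mature products were examined in kidney. Rows of the miRNA count table were taken by miRNA number, any letter and either arm, for 46 numbers that belong to this locus. Of these numbers 43 had a row, and miR-654, miR-665 and miR-679 had none. The members were 71 of the 1542 mature sequences in the table. They formed 3 sets fixed by number: 16 rows of the miR-127/miR-433/miR-434 group (miR-673, miR-493, miR-337, miR-540, miR-431, miR-433, miR-127, miR-434 and miR-136), 50 rows of the miR-379/miR-410 group, and 5 rows of miR-341, miR-370 and miR-770, which lie outside both.

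The small RNA libraries, 3 of C57BL/6 and 3 of MRL/lpr, came from kidneys of female mice aged 17 weeks. The MRL/lpr mice were MRL/MpJ-Fas<lpr>/J, which carry the lpr mutation of the death receptor gene Fas on the MRL background and develop a lupus-like disease with nephritis. The C57BL/6 mice served as the wild-type controls and differ from them in the whole genetic background as well as in Fas and in disease, so these cannot be told apart here. Nothing in the labels ties a library to an animal of its own, and p-values measure the spread between these libraries.

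MicroRNAs are short RNAs that pair with messenger RNAs, mainly through a seed near the 5′ end, and lower their translation or stability. In the Dlk1-Dio3 region the non-coding RNAs and miRNAs are expressed from the maternal chromosome, while Dlk1, Rtl1 and Dio3 are expressed from the paternal one. The miRNAs are known for high levels in embryo, placenta and brain and for lower levels in most adult tissues. Those of the miR-127/miR-433/miR-434 group include hairpins transcribed antisense to Rtl1, a retrotransposon-derived gene needed in placenta, and those of the miR-379/miR-410 group arise from the Mirg transcript unit farther along the same strand.

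The names matched the locus. Of the 71 members 68 were in the RefSeq table for GRCm38.p6, the build that the submitters' processing notes name, and miR-376c-3p, miR-487b-3p and miR-485-5p were not matched. The 9 hairpins of the miR-127/miR-433/miR-434 group span 23.4 kb of chromosome 12 (109571990 to 109595388, all on the plus strand). The 31 hairpins found for the miR-379/miR-410 group span 34.7 kb (109709060 to 109743795), 30 of them on the plus strand, and begin 114 kb after the end of the other group. In the GENCODE M21 annotation 5 of the 9 hairpins (miR-431, miR-433, miR-127, miR-434 and miR-136) lie opposite an exon of Rtl1. For the miR-379/miR-410 group 11 of the 31 hairpins, from miR-382 to miR-410, overlap the annotated Mirg gene, 7 of them in an exon. The hairpins of miR-341 and miR-370 lie in an intron of Rian, and that of miR-770 in an exon of Meg3.

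The mature sequences of the 15 members abundant enough to be tested are given because the results turn on them and no seed is shared among them. Each is written 5′ to 3′ from RefSeq (GRCm38.p6), with the seed (bases 2 to 8) in capitals, in the order of the hairpins along the chromosome.
miR-337-5p: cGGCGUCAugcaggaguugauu
miR-127-3p: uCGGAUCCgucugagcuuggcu
miR-434-5p: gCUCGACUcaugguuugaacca
miR-434-3p: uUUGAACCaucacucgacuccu
miR-341-3p: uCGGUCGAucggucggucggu
miR-379-5p: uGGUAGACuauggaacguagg
miR-411-5p: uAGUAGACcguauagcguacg
miR-376a-3p: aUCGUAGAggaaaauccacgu
miR-300-3p: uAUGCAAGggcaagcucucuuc
miR-381-3p: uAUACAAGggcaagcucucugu
miR-382-5p: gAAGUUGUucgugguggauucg
miR-154-5p: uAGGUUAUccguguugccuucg
miR-541-5p: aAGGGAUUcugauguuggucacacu
miR-369-5p: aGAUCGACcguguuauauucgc
miR-410-3p: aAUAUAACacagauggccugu

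These 15 sequences hold 15 different seeds, and the 68 members with a sequence hold 65. A seed shared with another member was found for 6 of the 68 (miR-299a-3p with miR-299b-3p, miR-376b-5p with miR-376c-5p, and miR-370-5p with miR-1193-3p). Some tested members share a seed with mouse miRNAs outside the members. These are miR-379-5p with miR-1193-5p, miR-411-5p with miR-7229-5p, and miR-410-3p with miR-344d-3p and miR-344e-3p. Some sequences are close copies: miR-300-3p and miR-381-3p differ by 3 substitutions in the best ungapped alignment, and so do miR-376a-3p and miR-376b-3p. The handling of reads that match more than 1 entry is not given, so these pairs are uncertain.

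The miR-127/miR-433/miR-434 group differs from the miR-379/miR-410 group in its relation to Rtl1. A perfect complement in the annotated Rtl1 transcript was found for 9 of 16 mature members of the miR-127/miR-433/miR-434 group, all from the 5 hairpins opposite Rtl1, and for 0 of 47 members of the miR-379/miR-410 group with a sequence. This follows from their position on the opposite strand of the same DNA. The sites for the 3 most abundant of these mature miRNAs are shown as they stand in the Rtl1 transcript, 5′ to 3′.
site for miR-127-3p: agccaagctcagacggatccga
site for miR-434-3p: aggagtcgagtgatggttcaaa
site for miR-434-5p: tggttcaaaccatgagtcgagc
Rtl1 itself was not measured, since only small RNA was sequenced.

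Library totals ran from 5259528 to 6773829 counts, and the members together took 15671 counts over all 6 libraries. Levels are in CPM, counts scaled to 1 common library size with TMM factors. A library total of this size means that a row at 0 allows up to 3 counts, or 0.424 to 0.614 CPM (counting error only). Kidney epithelial miRNAs were abundant in every library (summed level of 9 marker miRNAs from 69651 to 119425 CPM). C57BL/6 replicate 2 was unlike replicates 1 and 3: its 6 leukocyte marker miRNAs summed to 27897 CPM against 6003 and 5818 CPM. Most of these sums was miR-146a-5p (25574 CPM against 5011 and 4765 CPM). Its 4 erythroid markers summed to 594 CPM against 2841 and 3496 CPM. Results without it are therefore also given for the group sums, the medians and several members.

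The summed level of the Dlk1-Dio3 miRNAs was lower in MRL/lpr kidneys in both groups of hairpins, by 1.99-fold and 2.05-fold, but no single member passed the test over all miRNAs. Summed over its 16 rows, the miR-127/miR-433/miR-434 group had 262, 338 and 237 CPM in C57BL/6 replicates 1, 2 and 3 and 133, 179 and 107 CPM in MRL/lpr replicates 1, 2 and 3. Summed over its 50 rows, the miR-379/miR-410 group had 279, 425 and 218 CPM in C57BL/6 and 138, 196 and 117 CPM in MRL/lpr. In both groups every C57BL/6 library was above every MRL/lpr library, and the libraries fell in the same order, with C57BL/6 replicate 2 the highest and MRL/lpr replicate 3 the lowest. The mean of the miR-127/miR-433/miR-434 group was 279 ± 53.1 CPM in C57BL/6 against 140 ± 36.3 CPM (SD, n = 3). That of the miR-379/miR-410 group was 307 ± 106 against 150.2 ± 40.8 CPM (SD, n = 3). Without C57BL/6 replicate 2 the means were 1.78-fold and 1.66-fold lower in MRL/lpr, against 1.99-fold and 2.05-fold with it. In whole kidney, fewer cells that express these miRNAs and less RNA per cell cannot be told apart.

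**Figure D1:**
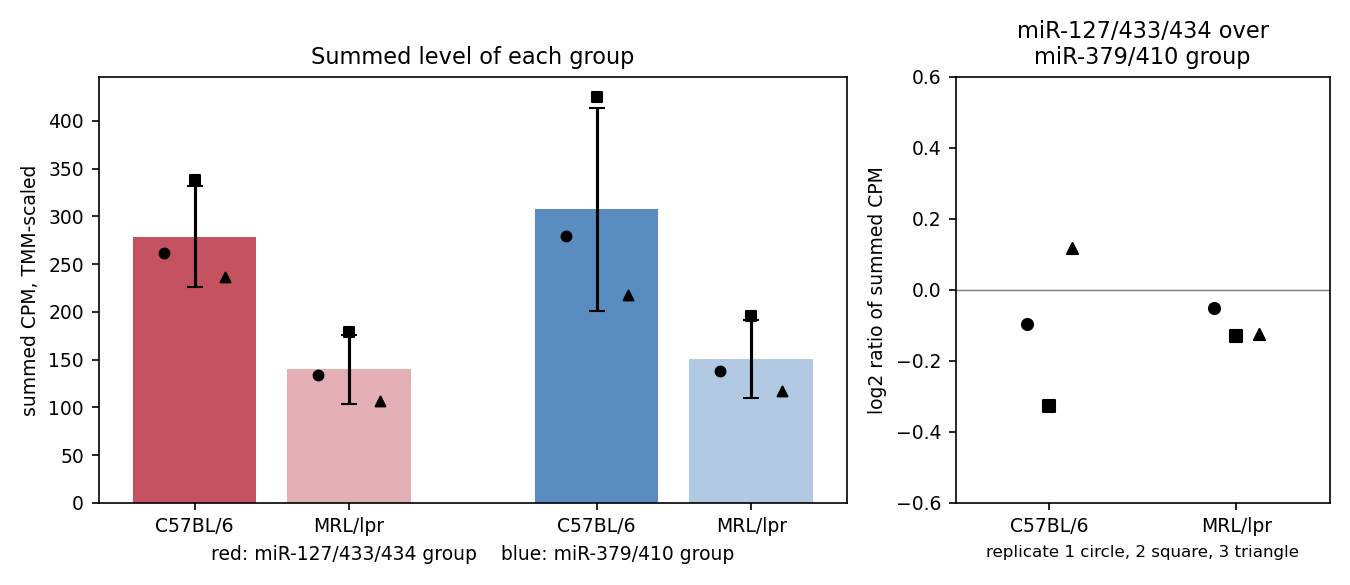
Left, summed TMM-scaled CPM of the miR-127/miR-433/miR-434 group (red) and the miR-379/miR-410 group (blue) by strain; bars are means of 3 libraries, error bars the SD, and points single libraries. Right, log2 ratio of the 2 sums in each library. The MRL/lpr bars stand near 140 and 150 CPM against 279 and 307 CPM in C57BL/6, and the ratios lie between -0.33 and 0.12 in C57BL/6 and between -0.13 and -0.051 in MRL/lpr.

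The balance between both groups was compared with and without the most abundant members. Over all rows, the log2 ratio of the miR-127/miR-433/miR-434 sum to the miR-379/miR-410 sum was -0.095, -0.33 and 0.12 in C57BL/6 against -0.051, -0.13 and -0.12 in MRL/lpr. Its mean was -0.10 ± 0.22 in C57BL/6 against -0.10 ± 0.044 (SD, n = 3), and the C57BL/6 values enclose those of MRL/lpr. With miR-127-3p left out of one sum and miR-379-5p and miR-411-5p out of the other, the log2 ratio was -1.96, -1.97 and -1.45 in C57BL/6 against -2.04, -2.27 and -2.12 in MRL/lpr. It was then lower in MRL/lpr without overlap, since the miR-127/miR-433/miR-434 rows were 2.27-fold lower in MRL/lpr and the miR-379/miR-410 rows 1.80-fold (2.16-fold and 1.60-fold without C57BL/6 replicate 2). No test was run on these sums over members. For single pairs of abundant members, 4 log2 ratios were compared by exact two-sided permutation, which cannot go below p = 0.1 for 3 against 3, with p-values adjusted over the 4. miR-127-3p over miR-411-5p differed by -0.051 between the strains (0.71 ± 0.18 in C57BL/6 against 0.66 ± 0.061; SD, n = 3; exact permutation p = 0.6, adjusted p = 0.6). miR-127-3p over miR-379-5p differed by 0.34 (exact permutation p = 0.3, adjusted p = 0.4). miR-379-5p over miR-411-5p was lower in each MRL/lpr library than in each C57BL/6 library, at -1.48 ± 0.12 against -1.09 ± 0.22 (SD, n = 3; exact permutation p = 0.1, adjusted p = 0.4).

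A filter on low counts, which asks for at least 1.70 CPM in 3 libraries, kept 15 of the 71 members: 4 of the miR-127/miR-433/miR-434 group, 10 of the miR-379/miR-410 group and miR-341-3p. These 15 rows held 96.5% of the member counts. Of the 15, 9 were past that level in all 6 libraries, and 4 (miR-337-5p, miR-434-5p, miR-381-3p and miR-541-5p) were past it in all C57BL/6 libraries and in fewer than 3 of MRL/lpr. For those 4 a lower level in MRL/lpr is partly set by the filter, so counts and medians over the 15 are descriptions.

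None of the 15 passed the test of strain (edgeR quasi-likelihood, Benjamini-Hochberg adjusted p under 0.05 over all miRNAs tested), which 28 miRNAs of the whole table passed (6.21% of those tested), 9 of them lower (2.00%). At an unadjusted p under 0.05, 9 of the 15 were lower, against 9.76% of all miRNAs tested. DESeq2 called 3 of 26 members lower, against 3.12% of all miRNAs it tested, and limma-voom 2 of 15, against 2.66%. Every one of the 15 log2 fold changes was below 0, against 51.4% of all miRNAs tested. Values of the strains did not overlap, with C57BL/6 the higher, for 11 of the 15, against 14.9% of all miRNAs tested, and for 7 of the 9 that were past the filter level in every library. With no filter on low counts, 54 of the 65 members with any count were below 0, against 54.5% of all 1395 rows with a count. The median log2 fold change of the tested members was -1.38 in the miR-127/miR-433/miR-434 group (4 members, from -1.58 to -0.98) and -0.91 in the miR-379/miR-410 group (10 members, from -1.49 to -0.56), against -0.027 over all miRNAs tested. Over the members past the filter level in every library the medians were -1.12 (2 members) and -0.88 (6 members). A difference between both groups was not tested. Without C57BL/6 replicate 2 the medians over all tested members were -1.25 and -0.67.

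**Figure D2:**
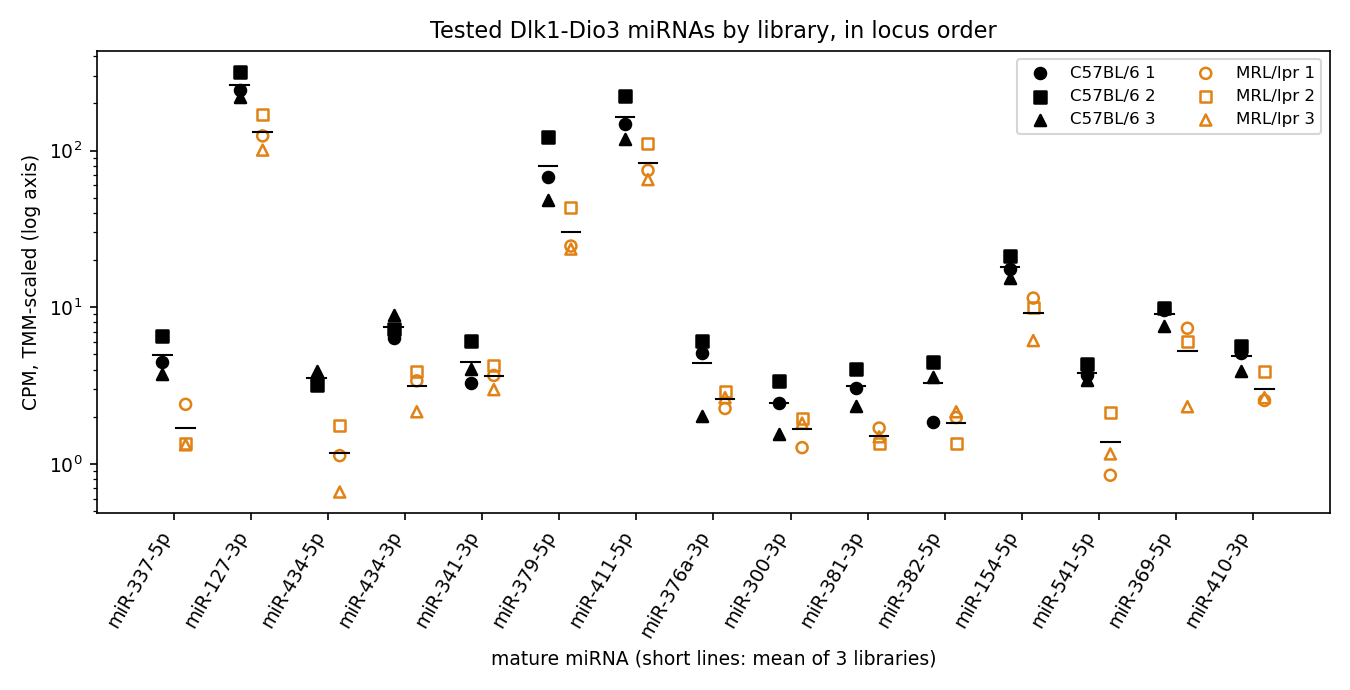
TMM-scaled CPM (log axis) of the 15 tested members in each library, in the order of their hairpins along the chromosome; filled black symbols are C57BL/6, open orange symbols MRL/lpr, and short lines means of 3 libraries. For 11 members all orange symbols lie below all black ones, and miR-127-3p, miR-379-5p and miR-411-5p stand above the rest.

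miR-127-3p, the most abundant member and the one best known as an antisense regulator of Rtl1, took 44.3% of all member counts. It had 245, 318 and 218 CPM in C57BL/6 and 123.97, 170.2 and 101 CPM in MRL/lpr, from 608 to 1980 counts per library. The lowest C57BL/6 library was above the highest MRL/lpr library. Its level was 1.98-fold lower in MRL/lpr (95% interval 1.33 to 2.94; log2 fold change -0.98 ± 0.26 SE, edgeR adjusted p = 0.0503). The adjusted p crossed the threshold in 6 of 13 alternative settings and ran from 0.00569 to 0.227 over them. Its other arm, miR-127-5p, had 1 count in all libraries together. The hairpin lies at 109592846 to 109592915 on chromosome 12, opposite an exon of Rtl1.

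Both arms of miR-434, whose hairpin (109594506 to 109594599) also lies opposite Rtl1, were low in MRL/lpr. miR-434-3p had 6.34, 7.23 and 8.88 CPM in C57BL/6 and 3.39, 3.88 and 2.15 CPM in MRL/lpr. miR-434-5p had 3.48, 3.21 and 3.89 CPM in C57BL/6 and 1.13, 1.75 and 0.662 CPM in MRL/lpr. For neither arm did the strains overlap, and for both the highest library was C57BL/6 replicate 3 and not replicate 2. The log2 fold change was -1.25 ± 0.38 SE for miR-434-3p (edgeR adjusted p = 0.0832) and -1.58 ± 0.44 SE for miR-434-5p (edgeR adjusted p = 0.0662; limma-voom adjusted p = 0.0490). Without C57BL/6 replicate 2 they were -1.27 and -1.63. For miR-434-5p the lower level in MRL/lpr is partly set by the filter. The log2 ratio of the 5p to the 3p arm differed by -0.40 between the strains and overlapped (-1.08 ± 0.18 in C57BL/6 against -1.48 ± 0.29; SD, n = 3; exact permutation p = 0.3, adjusted p = 0.4).

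miR-337-5p comes from a hairpin (109585789 to 109585885) between Meg3 and Rtl1. It had 4.50, 6.59 and 3.74 CPM in C57BL/6 and 2.40, 1.36 and 1.32 CPM in MRL/lpr, with no overlap. Its log2 fold change was -1.52 ± 0.43 SE (edgeR adjusted p = 0.0662). The other members of this group had few counts, and they did not all lie lower: the 12 untested rows summed to 12, 21 and 14 counts in C57BL/6 and 18, 9 and 14 in MRL/lpr. miR-136-5p, from the last hairpin opposite Rtl1, had 2, 4 and 7 counts in C57BL/6 and 12, 3 and 5 in MRL/lpr. miR-431-5p had 4, 7 and 2 against 1, 4 and 7 counts. miR-433-3p had 3, 4 and 1 against 2, 1 and 0 counts, and miR-673-3p had none in any library. Strain values overlapped for all 3 of miR-136-5p, miR-431-5p and miR-433-3p, and a difference in them was not detectable at this depth.

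The miR-379/miR-410 group opens with miR-379 and miR-411, whose products were its most abundant members. miR-379-5p had 67.3, 123 and 48.5 CPM in C57BL/6 and 24.6, 43.1 and 23.5 CPM in MRL/lpr. miR-411-5p had 147, 222 and 119 CPM in C57BL/6 and 74.7, 110.4 and 65.2 CPM in MRL/lpr. Neither overlapped between strains, but the gap between the lowest C57BL/6 and the highest MRL/lpr library was small for both, with C57BL/6 replicate 3 and MRL/lpr replicate 2 next to each other. The log2 fold change of miR-379-5p was -1.39 ± 0.38 SE (2.62-fold lower, 95% interval 1.44 to 4.76; edgeR adjusted p = 0.0662). It crossed the threshold in 6 of 13 alternatives (adjusted p from 1.74e-04 to 0.259). Without C57BL/6 replicate 2, where it was 2.12 times the mean of the other C57BL/6 libraries, its log2 fold change was -0.91. For miR-411-5p the log2 fold change was -0.96 ± 0.30 SE (1.95-fold lower, 95% interval 1.23 to 3.09; edgeR adjusted p = 0.0836), and it crossed the threshold in 2 of 13 alternatives. Without C57BL/6 replicate 2 it was -0.65.

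Farther along the cluster miR-154-5p, from a hairpin in an intron of Mirg (109738433 to 109738498), had 17.6, 21.2 and 15.3 CPM in C57BL/6 and 11.4, 9.90 and 6.13 CPM in MRL/lpr. The strains did not overlap, and its log2 fold change was -0.97 ± 0.32 SE (edgeR adjusted p = 0.101). miR-541-5p, from another Mirg intron, had 3.68, 4.34 and 3.43 CPM against 0.847, 2.13 and 1.16 CPM. It had the lowest log2 fold change of the group, -1.49 ± 0.44 SE (edgeR adjusted p = 0.0777), again with no overlap.

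The 2 tested members at the far end, in exons of Mirg, were also lower without overlap. miR-369-5p had 9.62, 9.96 and 7.63 CPM in C57BL/6 and 7.34, 6.02 and 2.32 CPM in MRL/lpr. miR-410-3p, the last of the cluster, had 5.11, 5.62 and 3.89 CPM in C57BL/6 and 2.54, 3.88 and 2.65 CPM in MRL/lpr. The nearest libraries of the strains almost touched in each case, and the separation rests on the TMM factors. miR-369-5p had 49 of 6773829 counts in C57BL/6 replicate 3 and 52 of 6460200 in MRL/lpr replicate 1. miR-410-3p had 25 of 6773829 counts in C57BL/6 replicate 3 and 20 of 5259528 in MRL/lpr replicate 2. By library total alone both miRNAs overlap between the strains. Their log2 fold changes of -0.79 ± 0.44 SE and -0.69 ± 0.38 SE had intervals that include 0 (95%, -1.76 to 0.18 and -1.54 to 0.15; edgeR adjusted p = 0.322 and 0.315).

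In the middle of the cluster the strains overlapped for some members. miR-381-3p had 3.07, 4.02 and 2.34 CPM in C57BL/6 and 1.69, 1.36 and 1.49 CPM in MRL/lpr. miR-300-3p, its near copy, had 2.46, 3.37 and 1.56 CPM against 1.27, 1.94 and 1.82 CPM. Values did not overlap for miR-381-3p (log2 fold change -1.04 ± 0.40 SE, edgeR adjusted p = 0.161) and did for miR-300-3p (-0.56 ± 0.44 SE, edgeR adjusted p = 0.526).

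miR-376a-3p, from a family known for editing of its seed, had 5.11, 6.10 and 2.03 CPM in C57BL/6 and 2.26, 2.91 and 2.65 CPM in MRL/lpr. C57BL/6 replicate 3 was the lowest of all 6 libraries for it. Its log2 fold change was -0.76 ± 0.46 SE with an edgeR adjusted p of 0.379. miR-382-5p had 1.84, 4.50 and 3.58 CPM in C57BL/6 and 1.98, 1.36 and 2.15 CPM in MRL/lpr, so that C57BL/6 replicate 1 fell among the MRL/lpr libraries (log2 fold change -0.85 ± 0.44 SE, edgeR adjusted p = 0.302).

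**Figure D3:**
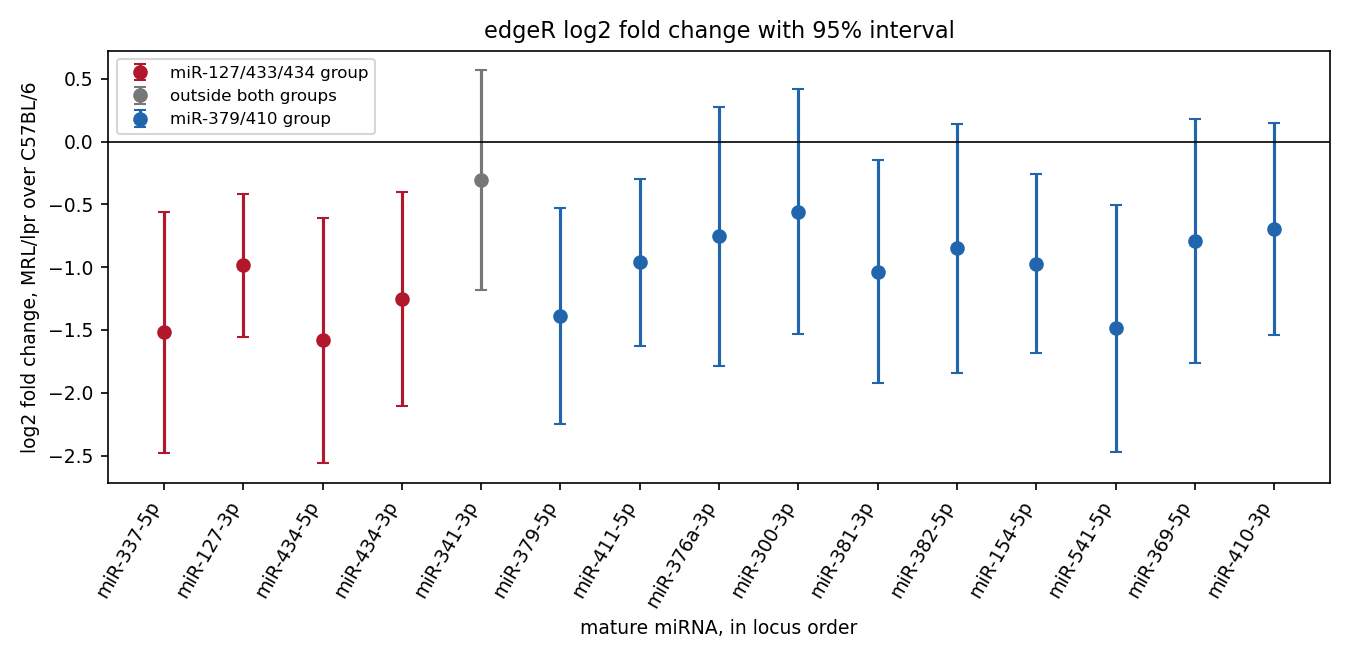
Fitted edgeR log2 fold change (MRL/lpr over C57BL/6) with 95% interval for the 15 tested members, in the order of their hairpins; red is the miR-127/miR-433/miR-434 group, blue the miR-379/miR-410 group and grey miR-341-3p. All points lie below 0, and the intervals of miR-341-3p, miR-376a-3p, miR-300-3p, miR-382-5p, miR-369-5p and miR-410-3p include 0.

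miR-341-3p, whose hairpin lies in an intron of Rian between both groups, had the smallest fold change of the 15. It had 3.27, 6.10 and 4.05 CPM in C57BL/6 and 3.67, 4.27 and 2.98 CPM in MRL/lpr, and the strains overlapped. Its log2 fold change was -0.31 ± 0.39 SE (95% interval -1.18 to 0.57, edgeR adjusted p = 0.685) and -0.0036 without C57BL/6 replicate 2. The interval includes the median of the miR-379/miR-410 group (-0.91). The miR-127/miR-433/miR-434 group, whose hairpins are the nearer ones, has a median outside it over its 4 tested members (-1.38). Over the 2 of these past the filter level in every library the median was -1.12, which lies inside the interval. A difference between miR-341-3p and either group was not tested. miR-370-3p and miR-770-5p had 1 count each in all libraries together, and miR-370-5p had none.

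The 56 members under the filter held 556 counts in all. Of these members 6 had no count in any library, and 50 had a total between 1 and 63 counts. Their sum was 19.4, 24.9 and 13.4 CPM in C57BL/6 and 12.1, 14.4 and 9.93 CPM in MRL/lpr. The strains overlapped, since C57BL/6 replicate 3 fell below MRL/lpr replicate 2. The most abundant of them were miR-376c-3p, with 6, 24 and 11 counts in C57BL/6 and 9, 3 and 10 in MRL/lpr, and miR-487b-3p, with 16, 10 and 11 against 5, 8 and 4 counts. miR-376b-3p had 9, 9 and 2 against 12, 6 and 4 counts, and miR-409-3p had 5, 7 and 7 against 3, 6 and 5. Of these 4, miR-487b-3p alone had its C57BL/6 counts all above its MRL/lpr counts. 

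**Figure D4:**
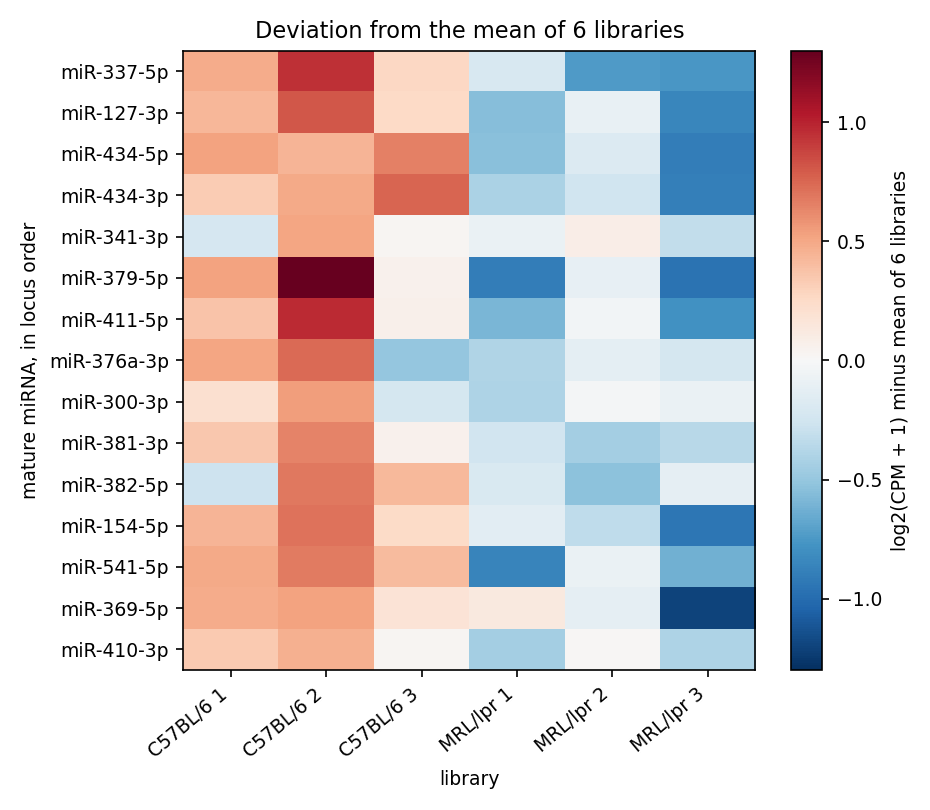
Deviation of each tested member (rows, in the order of their hairpins) from its own mean over the 6 libraries (columns), on the log2(CPM + 1) scale; red is above and blue below the mean. The C57BL/6 columns are mostly red and the MRL/lpr columns mostly blue, with C57BL/6 replicate 2 highest for 13 of the 15 members and MRL/lpr replicate 3 lowest for 9.

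The libraries moved members together within strains too. C57BL/6 replicate 2 was the highest of all libraries for 13 of the 15 tested members, including all 10 of the miR-379/miR-410 group. C57BL/6 replicate 3 was the highest for both arms of miR-434. Without C57BL/6 replicate 2 the log2 fold change was smaller in size for every tested member except both arms of miR-434. It was then -0.80 for miR-127-3p, -1.22 for miR-337-5p, -0.40 for miR-376a-3p, -0.23 for miR-300-3p and -0.56 for miR-382-5p. The summed level in C57BL/6 replicate 2 was 1.71 times the mean of the other C57BL/6 libraries for the miR-379/miR-410 group and 1.36 times for the miR-127/miR-433/miR-434 group. MRL/lpr replicate 3 was the lowest of all libraries for 9 members, MRL/lpr replicate 1 for 3, MRL/lpr replicate 2 for 2 and C57BL/6 replicate 3 for 1.

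Marker miRNAs of other cell types moved with some of these differences, and their part in them was not tested. All 6 mesenchymal markers were tested and none passed; their summed level was 36927, 43744 and 32687 CPM in C57BL/6 and 30081, 34086 and 27035 CPM in MRL/lpr. This sum overlapped between the strains. Within each strain it ordered the libraries as the member sums did, with replicate 2 highest and replicate 3 lowest. Most of it was miR-143-3p (32322 of the 36927 CPM in C57BL/6 replicate 1). miR-143-3p and miR-199a-5p had this order in both strains, and miR-199a-3p, miR-199b-3p, miR-214-3p and miR-145a-5p did not. miR-199a-3p had 242 counts and miR-199b-3p 15070 in C57BL/6 replicate 3, against 13192 and 184 in C57BL/6 replicate 1. The handling of reads that match more than 1 entry is not given, so this pair is uncertain. Both endothelial markers were below 0 and neither passed (summed 69362 to 82924 CPM in C57BL/6 and 58064 to 73074 CPM in MRL/lpr). miR-143-3p, a smooth muscle miRNA and the most abundant mesenchymal marker, had a log2 fold change of -0.33 (edgeR adjusted p = 0.252), and miR-126a-3p, the endothelial one, of -0.28 (edgeR adjusted p = 0.285).

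Leukocyte markers did not follow the strain difference of the members. They summed to 5818 to 27897 CPM in C57BL/6 and 9019 to 10752 CPM in MRL/lpr, with 1 of 6 (miR-155-5p) higher in MRL/lpr. Most of each sum was miR-146a-5p, and 5 of the 6 markers had log2 fold changes above 0. Among the C57BL/6 libraries all 6 were highest in replicate 2, as most members were. The 2 tested myeloid markers did the same (summed 243 to 1173 CPM in C57BL/6 and 370.5 to 433.8 CPM in MRL/lpr). Erythroid markers summed to 594 to 3496 and 3477 to 4306 CPM, with 0 of 3 tested members past the threshold. Kidney epithelium markers summed to 69651 to 112484 and 107785 to 119425 CPM, with miR-204-5p and miR-802-5p higher. Of 4 neuroendocrine markers, whose sums did not overlap (1521 to 1679 CPM in C57BL/6 and 1251 to 1454 CPM in MRL/lpr), miR-375-3p was lower. The other 3 had log2 fold changes above 0, and the list had a median of 0.15. No listed marker of these cell types was at 0 in all libraries.

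**Figure D5:**
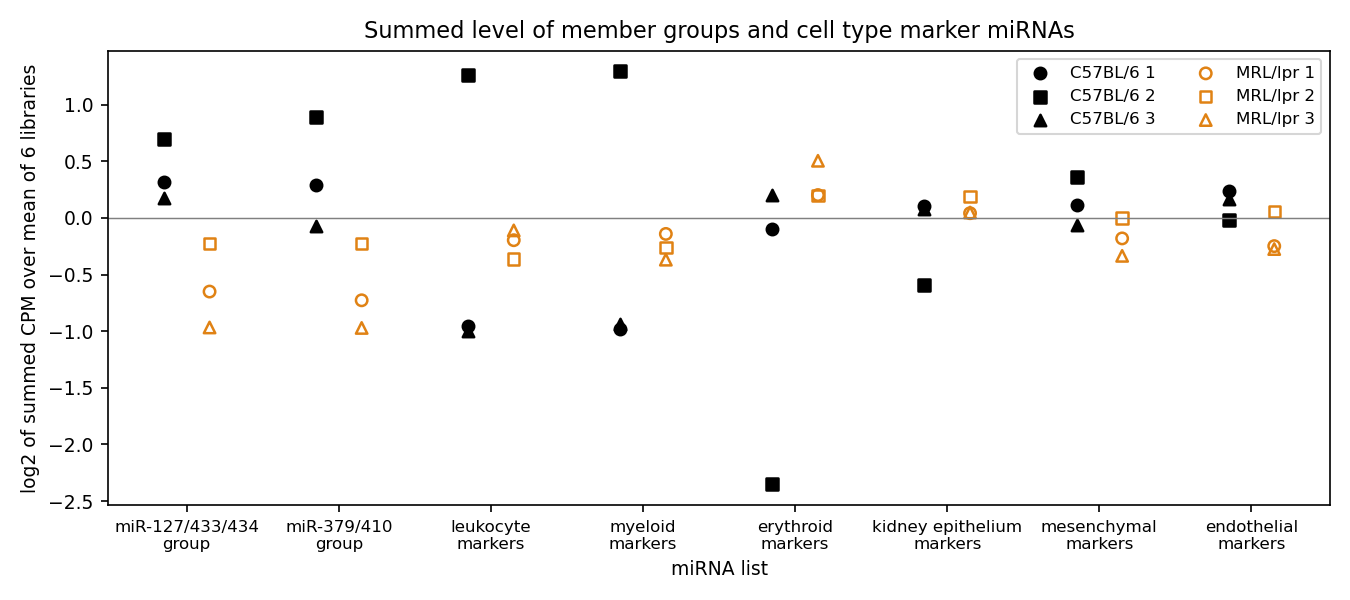
Summed CPM of both member groups and of 6 lists of cell type marker miRNAs in each library, as log2 of the ratio to the mean of the 6 libraries; filled black symbols are C57BL/6 and open orange symbols MRL/lpr. Both member groups and the leukocyte, myeloid and mesenchymal lists are highest in C57BL/6 replicate 2 (black squares), where the erythroid and kidney epithelium lists are lowest.

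Other miRNAs of the locus and of other imprinted loci, from lists outside the rule, had few counts for the most part. Of 16 further Dlk1-Dio3 names 6 were in the table and none was tested. miR-1247-5p, from a hairpin near Dio3, had 7, 4 and 15 counts in C57BL/6 and 1, 3 and 1 in MRL/lpr, and miR-1247-3p had 2, 4 and 2 against 1, 4 and 5. Of 10 names from imprinted loci elsewhere 9 were in the table and 2 were tested, the arms of miR-335 from the Mest gene. Neither passed: miR-335-5p had a log2 fold change of -0.20 (edgeR adjusted p = 0.695) and miR-335-3p of 0.0024 (edgeR adjusted p = 0.997). Of the untested names, both arms of miR-483, from an intron of the imprinted gene Igf2, were named after their values were seen. miR-483-3p had 11, 5 and 19 counts in C57BL/6 against 2, 1 and 0 counts. miR-483-5p had 11, 3 and 9 counts against 0 in each MRL/lpr library. Neither arm of miR-483 overlapped between the strains. miR-296-5p, the most abundant untested name of this list, went the other way, with 2, 3 and 1 counts in C57BL/6 against 17, 3 and 17. It was also named after its values were seen.

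Both arms of a hairpin come from the same precursor, so a shift in their balance is separate from a change in transcription. The log2 ratio of the 5p to the 3p arm, after adding 1 CPM to each, was tested with limma over 217 hairpins, of which 10 were members. 1 of the 10 passed, against 8 of 217 hairpins (3.69%). It was miR-379, with ratios of 5.404, 6.382 and 5.419 in C57BL/6 against 4.32, 4.48 and 3.88 in MRL/lpr (difference -1.51, 95% interval -2.22 to -0.79; limma adjusted p = 0.0269). Its minor arm miR-379-3p had 3, 3 and 1 counts in C57BL/6 and 2, 5 and 4 in MRL/lpr, near the added CPM, so the ratio follows the level of miR-379-5p and the added value. miR-379-3p and miR-411-3p differ by 2 substitutions, so reads of these arms are uncertain. With 0.5 CPM added no member passed (lowest adjusted p = 0.0993), and none passed without C57BL/6 replicate 2 (0.0703), MRL/lpr replicate 1 (0.05005) or MRL/lpr replicate 3 (0.146). For miR-434, which had both arms past the filter, the difference was -0.035 (95% interval -0.63 to 0.56; limma adjusted p = 0.937). Without the added CPM it was -0.40. miR-434-5p had 0.662 to 1.75 CPM in MRL/lpr, near the added CPM, so the value for miR-434 depends on it too.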

How the data were processed

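Total RNA of mouse kidney was made into small RNA libraries by adapter ligation, PCR and gel size selection, per the labels' protocols; ligation favours some ends, so levels of different miRNAs compare less well than levels of 1 miRNA between libraries. The authors deposited raw read counts, whole numbers for each mature miRNA, with no normalization. Bowtie2, DESeq2 and GRCm38.p6 appear in the submitters' processing notes, without roles or versions; strand and the handling of multiple matches are not given. Column names and sample titles were joined by age, replicate number and group.

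Counts were fitted in R 4.3.3 with edgeR 4.0.16 (filterByExpr, minimum count 10 and total 15; TMM; robust quasi-likelihood; strain alone) over the whole table, with Benjamini-Hochberg adjustment at 0.05, and arm ratios with limma 3.58.1. Standard errors come from the coefficient and its F statistic, and the scripts were tested on simulated data. DESeq2 1.42.0, limma-voom, other scalings, filters and pseudocounts, leaving out each library, and a replicate block were alternatives. Named were all members past the filter and the 5 most abundant below it. Some other members with few counts were named beside these. Of other lists, the members past the threshold or the 2 most abundant were named. Members and lists (leukocyte, myeloid, erythroid, kidney epithelium, mesenchymal, endothelial, neuroendocrine, further Dlk1-Dio3, other imprinted) were chosen with earlier results of these data known. Permutation tests used scipy 1.17.1 and figures matplotlib 3.10.9.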

Additional observations from a re-analysis of the deposited data

How the results depend on the processing

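Each of the 15 tested members had a log2 fold change below 0 in every one of the 13 alternative settings that tested it. Of these members 4 (miR-127-3p, miR-379-5p, miR-411-5p and miR-434-5p) passed the threshold in at least 1. The lower level of miR-434-5p is partly set by the filter. Some members outside the 15 were above 0 where a setting tested them. These were 11 of 65 with no filter and 3 of 26 with DESeq2 (miR-136-5p, miR-376b-3p and miR-379-3p). miR-376b-3p was also above 0 without MRL/lpr replicate 2 or without MRL/lpr replicate 3. The number of members lower, beside the share of all miRNAs called lower in that setting, was 1 of 15 with RLE scaling (2.00%), 3 of 65 with no filter (2.15%), 2 of 4 with at least 10 CPM in 3 libraries (3.08%), 3 of 26 with DESeq2 (3.12%) and 2 of 15 with limma-voom (2.66%). It was 0 to 2 with a library left out (2 of 18 without MRL/lpr replicate 2, against 3.12%, and 1 of 16 without C57BL/6 replicate 3, against 1.06%). Over all miRNAs the number of calls was 64 with no filter and 51 with DESeq2, and 5 (without MRL/lpr replicate 3) to 54 (without C57BL/6 replicate 2) with a library left out. The median of the miR-127/miR-433/miR-434 group was -0.93 with the 10 CPM minimum, where miR-127-3p alone was tested, and -1.11 with DESeq2, where 6 members were. Calls of arm balance numbered 1 and 14 with 0.5 and 5 CPM added, 2 with both arms past the filter, and 1 to 8 with a library left out (1 without C57BL/6 replicate 2 or MRL/lpr replicate 3). Without TMM the median of all miRNAs moved from -0.027 to 0.12 and those of the 2 member groups to -1.24 and -0.77, with 24 miRNAs higher and 6 lower. The cause of these changes was not tested. Same-numbered libraries of the strains had correlations of -0.37, 0.034 and -0.37, and the other pairs of -0.18 to 0.39. These values cannot show whether replicate numbers pair the samples. With a replicate block 13 miRNAs passed, 1 of 15 members lower (miR-379-5p, against 1.11% of all miRNAs), and 3 hairpins in arm balance. Members under the filter have too few counts for single comparisons.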
